A study of Rattus norvegicus with 10 samples.

Results

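The genes of fat breakdown were followed here in white adipose tissue: 3 lipases (Pnpla2, Lipe, Mgll), 3 proteins that act on them (Abhd5, G0s2, Plin1), a receptor and 2 signalling proteins (Adrb3, Gnai1, Pde3b) and the glycerol channel Aqp7. All 10 were among the 14217 genes of the array. The rule took every probe set annotated to one of these symbols and no other, which gave 16 of the 31042 probe sets tested. A probe set is the group of short probes that together report 1 transcript. A pair of probe sets annotated to Gnai1 together with Gnai3 was left out by the rule.

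The tissue came from 10 male rats aged 13 weeks, with 1 array per rat. The noodle group (5 rats) ate a diet in which instant noodle with its seasonings made up 30% of the weight and fat supplied 26% of the energy. The control group (5 rats) is labelled as on a control diet, which the series' design describes as the same food with the seasonings left out, and the question posed is what the seasonings do to lipid metabolism. Both groups shared paired feeding at roughly 60 g per kg of body weight a day for 30 days (4 weeks in another label) under 12 h of light and 12 h of dark. Rat strain, fat depot and time of sampling were not stated.

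Fat cells store triglyceride in a lipid droplet and release it stepwise. Adipose triglyceride lipase (Pnpla2) removes the initial fatty acid, hormone-sensitive lipase (Lipe) the next, and monoglyceride lipase (Mgll) the last, which leaves glycerol. Abhd5 activates Pnpla2, G0s2 inhibits it, and perilipin (Plin1) coats the droplet and holds Abhd5 back until protein kinase A phosphorylates it. The kinase is switched on by cyclic AMP, which beta-adrenergic receptors such as Adrb3 raise, inhibitory G proteins such as Gnai1 restrain, and the phosphodiesterase Pde3b, the main antilipolytic target of insulin, degrades. Glycerol leaves the cell through Aqp7.

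Values are on the deposited scale, taken as log2, and a difference is always noodle minus control. Most values in this table hardly vary: a probe set with a standard deviation (SD) of 0.01 or less over the 10 arrays is called flat, and no size of effect is read from it. Of the 16 probe sets, 11 were variable and 5 were flat, against 2607 variable among all 31042 (8.4%). The variable ones report 8 genes: Pnpla2, Lipe, Abhd5 (2 probe sets), Mgll (3), G0s2, Adrb3, Gnai1 and Pde3b. Both probe sets of Plin1, the 1 of Aqp7 and 1 each of Lipe and Mgll were flat. Levels of different probe sets are not comparable with each other, and the precision is limited by 5 arrays per group. Where a gene had several probe sets, the one with the highest mean represents it.

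No gene of the pathway passed the test. Of all probe sets, 0 (0%) reached an adjusted p of 0.05 in limma, a linear model that shares the variance estimate across probe sets, with Benjamini-Hochberg adjustment over the whole table, and the same held for the 16 members. At an unadjusted p under 0.05 there was 1 member of 16, a probe set of Mgll that was lower in the noodle group, where all probe sets together gave 4.77% (2.29% lower) and the variable ones 8.13% (5.33% lower). The members' share is near the background. In none of the 11 variable probe sets did the groups separate without overlap, against 0.959% of all variable probe sets. Of the 8 variable genes, 3 had a higher mean in the noodle group (G0s2, Gnai1, Pde3b) and 5 a lower one (Mgll, Abhd5, Pnpla2, Lipe, Adrb3). The 11 variable probe sets had a median difference of -0.04, and all 2607 variable probe sets one of -0.01.

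**Figure D1:**
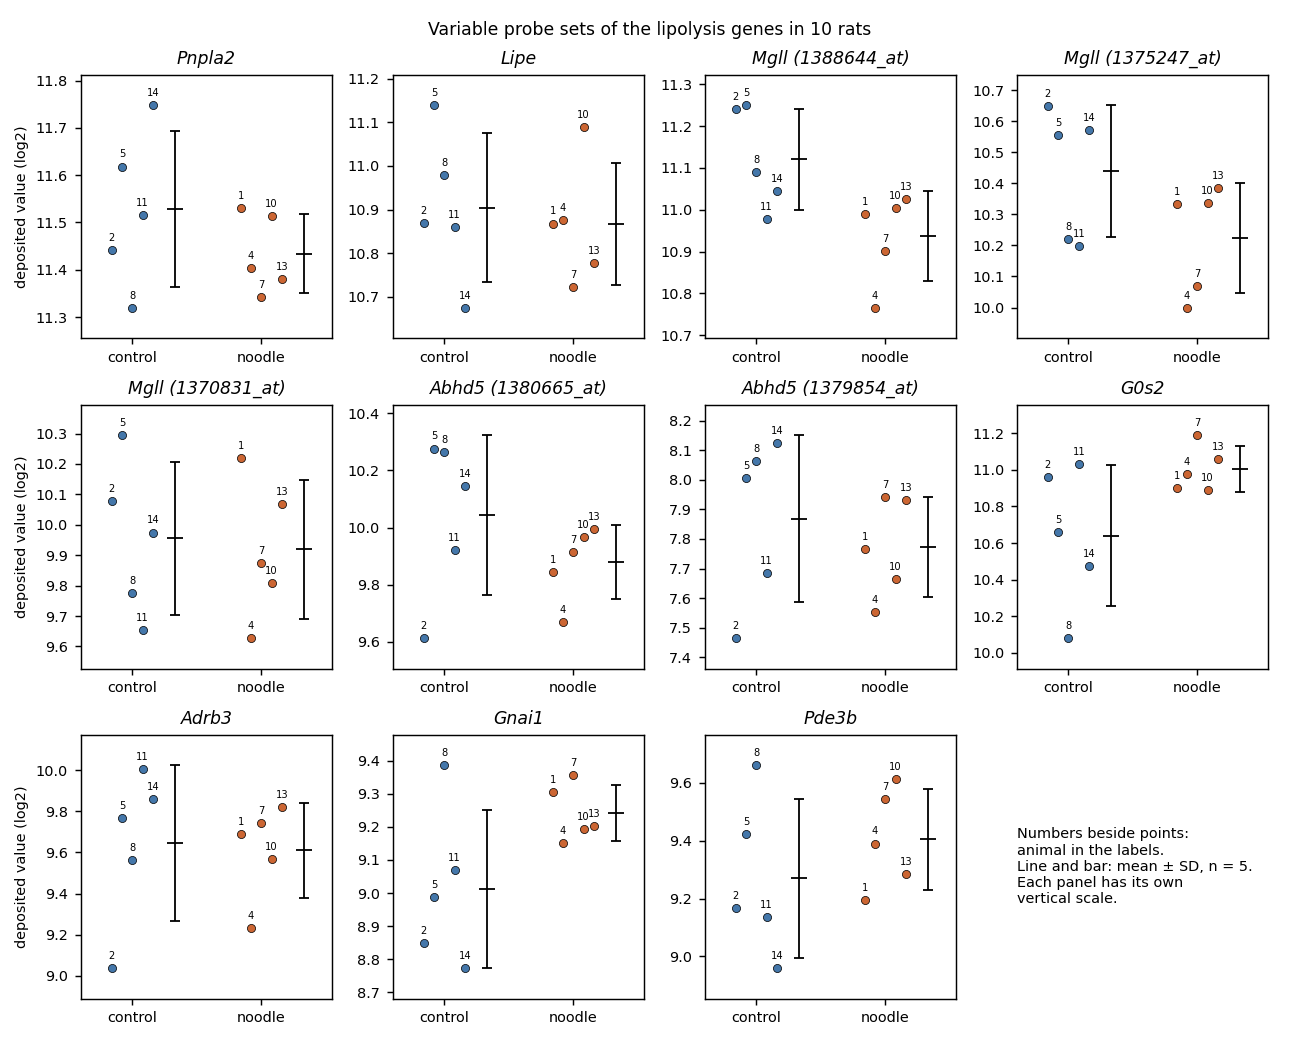
Deposited log2 values of the 11 variable probe sets in each rat, by diet, with the representative probe set of Mgll and Abhd5 ahead of their others. Blue points are control and orange points noodle animals, numbered as in the labels, and the black line and bar are the mean ± SD of 5 animals. The diets overlap in every panel, and in G0s2 and Gnai1 the noodle animals lie closer together than the controls.

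The sequences just upstream of 3 members are given first because these genes, Mgll, G0s2 and Gnai1, had the smallest p among the members. Of the 10 genes, 6 had an entry among the RefSeq promoter windows of the GRCr8 build. The lines below hold the 250 bases before the start, 5′ to 3′ on the gene's strand. Capitals mark exact matches, on either strand, of CACGTG (the E-box bound by clock and related factors), CCAAT (the CCAAT box) or GGGCGG (the GC box bound by Sp1-like factors), and no marked matches overlap.
Mgll, chr4:122749186-122749435, plus strand: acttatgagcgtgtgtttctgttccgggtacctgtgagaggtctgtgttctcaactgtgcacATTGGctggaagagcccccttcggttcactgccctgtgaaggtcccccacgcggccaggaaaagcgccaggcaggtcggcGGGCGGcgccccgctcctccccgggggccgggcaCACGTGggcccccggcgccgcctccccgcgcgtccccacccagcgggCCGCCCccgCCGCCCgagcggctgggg
Gnai1, chr4:17705811-17706060, plus strand: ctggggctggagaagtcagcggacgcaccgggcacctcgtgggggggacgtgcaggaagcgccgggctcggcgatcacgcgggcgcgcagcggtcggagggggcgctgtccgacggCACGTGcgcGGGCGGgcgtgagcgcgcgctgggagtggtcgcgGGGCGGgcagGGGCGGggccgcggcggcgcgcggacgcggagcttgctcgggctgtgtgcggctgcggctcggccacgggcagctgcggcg
G0s2, chr13:107335949-107336198, minus strand: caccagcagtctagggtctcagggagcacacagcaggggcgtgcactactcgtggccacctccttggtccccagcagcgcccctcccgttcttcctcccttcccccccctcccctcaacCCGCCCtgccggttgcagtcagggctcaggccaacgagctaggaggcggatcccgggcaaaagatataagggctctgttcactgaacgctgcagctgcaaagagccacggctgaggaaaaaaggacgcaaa

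The E-box letters stood 74 bases before the start of Mgll and 134 bases before that of Gnai1, and in 5.79% of 27457 promoters of the same length. G and C made up 72.4% of the letters for Mgll, 80.4% for Gnai1 and 62.8% for G0s2, and the share over all promoters was not computed. GGGCGG was found in 5 of the 6 members with a sequence and in 32.4% of all promoters, and CCAAT in 2 of 6 (Mgll and Plin1) and 34.3%. These counts make no allowance for the G and C content, of which GGGCGG wholly consists. The cyclic AMP response element TGACGTCA (1.7% of promoters), the PPARG-type direct repeat of AGGTCA around 1 free base (0.0546%), the C/EBP site TTGCGCAA (0.164%) and TATAAA (13.1%) had no exact match in these windows. Of their shorter parts, TGACG (19.0% of promoters) stood 140 bases before the start of Plin1. AGGTCA (13.7%) stood 207 bases before that of Abhd5. A match is a description of letters and not of a bound site.

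Among the lipases, Mgll had the smallest p. Its representative probe set stood at 10.99, 10.77, 10.90, 11.01 and 11.03 in noodle animals 1, 4, 7, 10 and 13. In control animals 2, 5, 8, 11 and 14 it stood at 11.24, 11.25, 11.09, 10.98 and 11.04. All 5 noodle rats lay below the control median, and 2 of them, animals 4 and 7, lay below every control. The difference was -0.18 ± 0.07 (SE, n = 5 per group, limma unadjusted p = 0.0287, adjusted p = 0.993), or 1.14-fold lower, with a 95% interval of -0.34 to -0.02. The two-sided exact permutation test over the 252 assignments of the arrays gave p = 0.0397, where the smallest possible is 0.00794. The unadjusted limma p rose above 0.05 when 1 of 4 rats was left out, to 0.0593 and 0.0584 for noodle animals 4 and 7 and to 0.0667 and 0.0664 for control animals 2 and 5. Counts of noodle rats on 1 side of the control median, here and below, were not set against all variable probe sets. All 5 noodle rats also lay on 1 side in Pde3b (exact permutation p = 0.365) and the second Abhd5 probe set (exact permutation p = 0.524).

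The other probe sets of Mgll carried less. The second had means of 10.22 ± 0.18 in the noodle rats and 10.44 ± 0.21 in the controls (SD, n = 5), again with 5 of 5 noodle rats below the control median, and differed by -0.22 ± 0.12 (interval -0.49 to 0.06). With the third the groups covered nearly the same range, 9.63 to 10.22 against 9.66 to 10.29, with a difference of -0.04 ± 0.15. The fourth probe set was flat at 6.47. Over the 10 rats the representative and the second probe set ran together (Pearson r = 0.86, permutation p = 0.00162, adjusted over 4 pairs of probe sets 0.00324, and Spearman rho = 0.83, p = 0.00475, adjusted 0.0142). Without noodle animal 4 and control animal 5, r was 0.77. The third probe set followed them less closely, with r of 0.66 (permutation p = 0.0376, adjusted 0.0376, rho = 0.61, p = 0.0668, adjusted 0.0668) and 0.71 (permutation p = 0.0234, adjusted 0.0312, rho = 0.71, p = 0.0266, adjusted 0.0355). The former was 0.26 without noodle animal 4 and control animal 5, and the latter 0.62 without noodle animal 4 and control animal 2. Averaging all 4 probe sets, 1 of them flat, gave -0.11 ± 0.08 (limma unadjusted p = 0.203). The mean of the variable probe sets only gave -0.15 ± 0.10 (limma unadjusted p = 0.191).

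Pnpla2, the enzyme of the opening step, stood at 11.53, 11.40, 11.34, 11.51 and 11.38 in noodle animals 1, 4, 7, 10 and 13. Control animals 2, 5, 8, 11 and 14 stood at 11.44, 11.62, 11.32, 11.52 and 11.75. The control group held both the highest and the lowest rat, and the noodle range lay inside it. The difference was -0.09 ± 0.08 (limma adjusted p = 0.993), with an interval of -0.28 to 0.09. Leaving out the lowest rat, control animal 8, gave -0.15, and leaving out the highest, control animal 14, gave -0.04.

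Lipe stood at 10.87, 10.88, 10.72, 11.09 and 10.78 in noodle animals 1, 4, 7, 10 and 13, and at 10.87, 11.14, 10.98, 10.86 and 10.67 in control animals 2, 5, 8, 11 and 14. The groups overlapped over nearly their whole range. The difference of -0.04 ± 0.10 (interval -0.26 to 0.18, limma adjusted p = 0.998) had no fixed sign: it was 0.02 when control animal 5 was left out, -0.10 when control animal 14 was, and -0.0036 with array weights. The other Lipe probe set was flat at 6.59.

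Lipe moved with a measure of RNA quality. The array's control probes for Actb and Gapdh give a 3-prime minus 5-prime difference, which grows as RNA is degraded or labelled less completely. It averaged 0.84 ± 0.07 over the noodle arrays against 0.95 ± 0.08 over control arrays (SD, n = 5, two-sided exact permutation p = 0.0476, adjusted over 13 array measures 0.413). Over the 10 arrays, Lipe correlated with it at r = 0.78 (permutation p = 0.0077, adjusted over 11 probe sets 0.0847) and rho = 0.66 (p = 0.0443, adjusted 0.488). Without the outermost arrays, noodle animal 13 and control animal 5, r was 0.66. Taken as deviations from the diet means, the correlation was 0.91 (permutation p = 0.00054, adjusted 0.00594), and 9 of the 2607 variable probe sets (0.345%) reached that size. The permutations of deviations crossed the diets and made no allowance for the removed diet means, so that p may be too small. The relation of Lipe with the measure was picked out after the values were seen. On the measure the noodle arrays spanned 0.75 to 0.93, and control animal 14, at 0.82, was the only control in that range. Differences with the measure as a covariate thus rest on little overlap between the diets. With the measure as a covariate in limma, the Lipe difference turned to 0.17 ± 0.05 (unadjusted p = 0.0146, adjusted p = 0.735). The representative Mgll probe set then stood at -0.15 ± 0.09 with an unadjusted p of 0.157, so that its p under 0.05 was lost, while Pde3b went from 0.14 to 0.32, the dimmer Abhd5 probe set from -0.10 to -0.25 and Adrb3 from -0.04 to -0.18. G0s2 and Gnai1 stood at 0.38 and 0.26. For G0s2 the SE grew to 0.24, and the limma unadjusted p went from 0.0704 to 0.154.

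**Figure D2:**
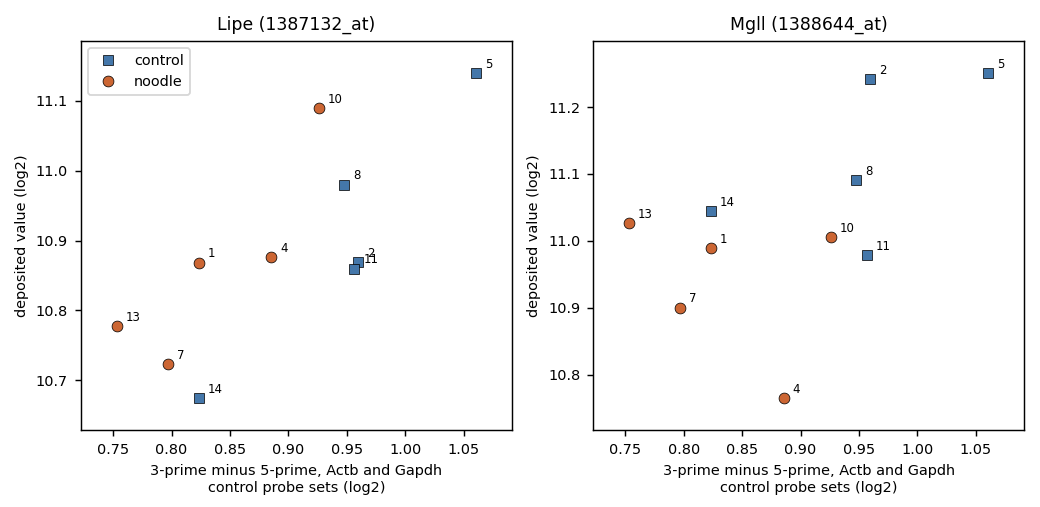
Deposited log2 values of Lipe (left) and Mgll (right) against the 3-prime minus 5-prime difference of Actb and Gapdh on the same array, 1 point per rat. Blue squares are control and orange circles noodle animals. Lipe climbs with the measure in both diets, and control animal 14 is the only control within the range of the noodle animals on the measure. Mgll has a correlation of 0.22 with the measure once the diet means are removed.

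Of the proteins that act on Pnpla2, its inhibitor G0s2 had the largest difference of the 8 variable genes. It stood at 10.90, 10.98, 11.19, 10.89 and 11.06 in noodle animals 1, 4, 7, 10 and 13, and at 10.96, 10.66, 10.08, 11.03 and 10.47 in control animals 2, 5, 8, 11 and 14. Every noodle rat lay above the control median, but control animals 2 and 11 lay among the noodle rats. The difference was 0.36 ± 0.18, or 1.29-fold (interval -0.04 to 0.76, limma unadjusted p = 0.0704, adjusted p = 0.993, exact permutation p = 0.0873). The controls spread over an SD of 0.39 and the noodle rats over 0.12. Control animal 8, the lowest rat, weighed on this value, which was 0.22 without it and 0.46 without control animal 11.

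Abhd5, the activator of Pnpla2, lay the other way. Its representative probe set stood at 9.84, 9.67, 9.91, 9.97 and 9.99 in noodle animals 1, 4, 7, 10 and 13, and at 9.61, 10.28, 10.26, 9.92 and 10.14 in control animals 2, 5, 8, 11 and 14. All 5 noodle rats lay below the control median, and control animal 2 lay below all of them. The difference was -0.17 ± 0.13 (interval -0.47 to 0.14, limma adjusted p = 0.993). It was -0.27 without control animal 2 (limma unadjusted p = 0.0213, adjusted p = 0.887) and -0.11 without control animal 5. It was -0.05 with array weights, which let arrays that fit the model less count for less. The second Abhd5 probe set stood between 7.55 and 7.94 in the noodle rats and between 7.46 and 8.12 in the controls, with a difference of -0.10 ± 0.14 that ran from -0.20 without control animal 2 to -0.03 without control animal 14, and was -0.06 and -0.05 without control animals 5 and 8, -0.04 without noodle animal 4, and -0.0038 with array weights. The probe sets followed each other over the rats (r = 0.88, permutation p = 0.00091, adjusted 0.00324, rho = 0.81, p = 0.00709, adjusted 0.0142, and r = 0.83 without control animals 2 and 5).

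Plin1, the droplet coat, was flat in both probe sets, at 12.04 and 8.30 in every rat of either diet. Aqp7, the glycerol channel, was flat as well, between 10.74 and 10.75. At SDs of 0.00013, 0.00022 and 0.0044 over the 10 arrays, these values say nothing on whether the diets differed.

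In the signalling arm, Gnai1, the inhibitory G protein subunit that lowers cyclic AMP, stood at 9.30, 9.15, 9.36, 9.19 and 9.20 in noodle animals 1, 4, 7, 10 and 13. In control animals 2, 5, 8, 11 and 14 it stood at 8.85, 8.99, 9.39, 9.07 and 8.77. Control animal 8 was the highest rat of all, and the other 4 controls lay below every noodle rat. The difference was 0.23 ± 0.11, or 1.17-fold (interval -0.02 to 0.48, limma unadjusted p = 0.0676, adjusted p = 0.993, exact permutation p = 0.0873). It ran from 0.17 without control animal 14 to 0.32 without control animal 8, where the unadjusted limma p was 0.00207. In that fit the lowest adjusted p of any probe set was 0.729.

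Pde3b, which degrades cyclic AMP, stood at 9.19, 9.39, 9.55, 9.61 and 9.29 in noodle animals 1, 4, 7, 10 and 13, and at 9.17, 9.42, 9.66, 9.14 and 8.96 in control animals 2, 5, 8, 11 and 14. All noodle rats lay above the control median, and control animal 8 was again the highest. The difference was 0.14 ± 0.14 (interval -0.19 to 0.46, limma adjusted p = 0.993), and it ran from 0.06 without control animal 14 to 0.23 without control animal 8.

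Adrb3, the adipocyte receptor for noradrenaline, varied most between rats after G0s2. It stood at 9.69, 9.23, 9.74, 9.57 and 9.82 in noodle animals 1, 4, 7, 10 and 13, and at 9.04, 9.77, 9.56, 10.01 and 9.86 in control animals 2, 5, 8, 11 and 14. Noodle animal 4 and control animal 2 were the lowest rats of their groups, and the groups overlapped. The difference was -0.04 ± 0.19 (interval -0.47 to 0.40, limma adjusted p = 0.999), and leaving out 1 rat moved it between -0.19 and 0.06.

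**Figure D3:**
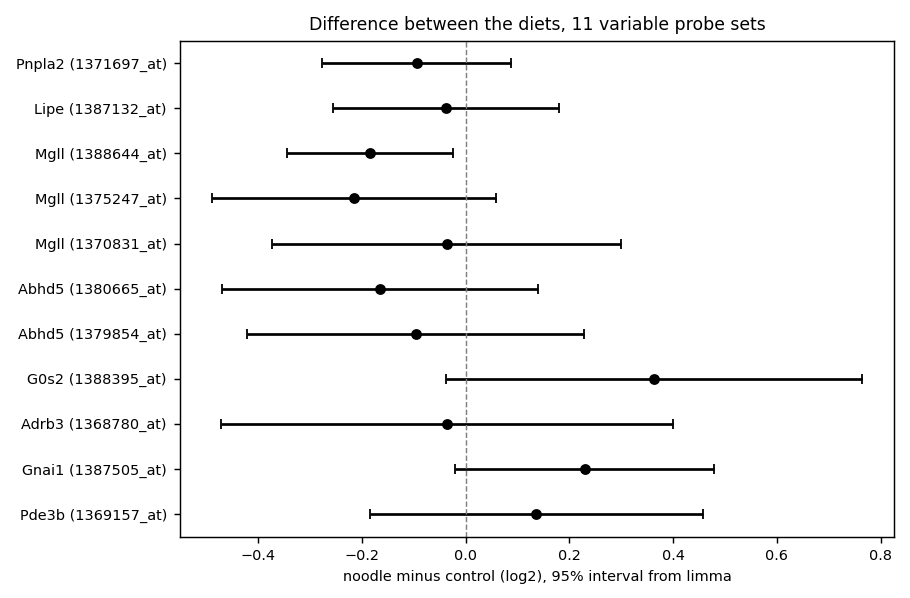
Difference between the diets for the 11 variable probe sets, noodle minus control on the log2 scale, with the 95% interval from limma before any adjustment. The interval of 1 probe set, the representative one of Mgll, lies wholly below 0, and the other 10 include 0.

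The controls were more spread out than the noodle rats in all 11 variable probe sets, with an SD that was between 1.10 and 3.11 times as large (median 1.64 times). Among all 2607 variable probe sets this held for 64.1%, with a median of 1.21 times. The widest gaps were those of G0s2 (SD 0.39 against 0.12), Gnai1 (0.24 against 0.09) and Abhd5 (0.28 against 0.13). Leaving out 1 rat left between 9 and 11 of the 11 in that order, against 52.4% (without control animal 14) to 70.5% (without noodle animal 4) of all variable probe sets. Probe sets of 1 gene share their transcript and all share the same rats, so these are not independent, and the difference in spread was not tested.

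Among themselves, the 8 variable genes formed 28 pairs, and 0 reached an adjusted p of 0.05 over the 10 rats, with the values or with deviations from the diet means. The largest correlations were those of Pnpla2 with Gnai1, Gnai1 with Pde3b and Abhd5 with G0s2. Pnpla2 and Gnai1 ran in opposite directions (r = -0.71, permutation p = 0.0197, adjusted 0.231, rho = -0.71, p = 0.0266, adjusted 0.446). Without control animals 8 and 14, the rats with the lowest and the highest Pnpla2, r was -0.37. Gnai1 and Pde3b ran together (r = 0.71, permutation p = 0.0222, adjusted 0.231, rho = 0.68, p = 0.0336, adjusted 0.446), with r = 0.42 without control animals 2 and 14. The activator Abhd5 and the inhibitor G0s2 ran in opposite directions (r = -0.69, permutation p = 0.0248, adjusted 0.231, rho = -0.55, p = 0.105, adjusted 0.467), with r = -0.78 without control animals 2 and 5. None of these 3 relations held among the 5 noodle rats alone, too few for a correlation of their own: there the first 2 were near 0 and that of Abhd5 with G0s2 had the opposite sign. Pnpla2 and Pde3b had r = -0.61 (permutation p = 0.0572, adjusted 0.32, rho = -0.60, p = 0.0741, adjusted 0.446), and -0.12 without control animals 8 and 14. Abhd5 and Adrb3 had r = 0.61 (permutation p = 0.0564, adjusted 0.32, rho = 0.49, p = 0.153, adjusted 0.477), and 0.38 without control animals 2 and 5. In each pair, the 2 rats left out were those farthest from the median of the gene named first. Leaving them out moved r by over 0.5 in 6 of the 28 pairs. Pnpla2 with Lipe went from 0.02 to 0.83, Mgll with Adrb3 from -0.07 to -0.79, Pnpla2 with G0s2 from -0.19 to -0.88, Adrb3 with Gnai1 from 0.11 to -0.58, Mgll with Abhd5 from 0.37 to -0.29 and Adrb3 with Pde3b from -0.18 to -0.77.

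**Figure D4:**
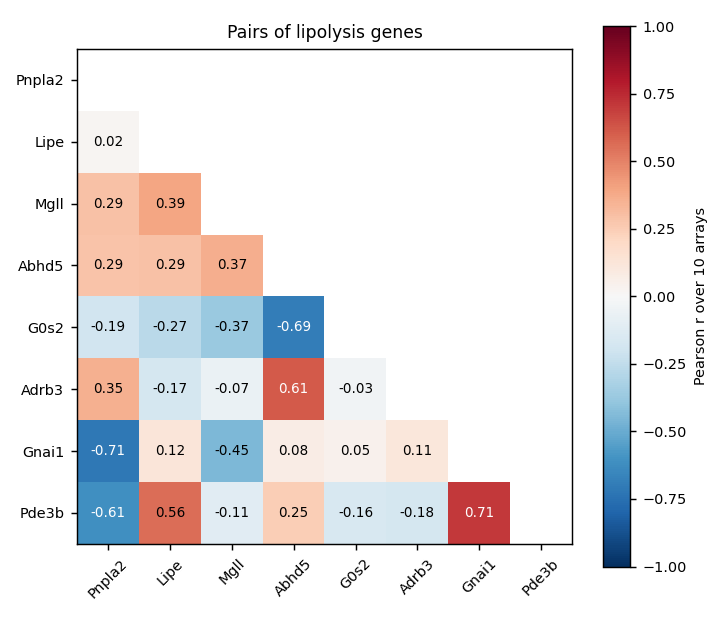
Pearson r over the 10 arrays for each of the 28 pairs of the 8 variable genes, red for pairs that run together and blue for pairs that run in opposite directions. The darkest cells are Pnpla2 with Gnai1, Gnai1 with Pde3b and Abhd5 with G0s2, and no pair passed after adjustment.

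The genes whose profile over the 10 rats was most like that of a member were searched among 1624 other genes with a variable probe set, by Pearson r, as a description. Abhd5 had the closest match, Cbr3, a carbonyl reductase, at r = 0.97, followed by Ppp1r1a at 0.95. Pnpla2 was nearest to Enpp1 and Depp1, both at 0.92. Lipe was nearest to Hycc2 (0.91) and Magi1 (0.86), and Pde3b to Lpar6 (0.88) and Fahd1 (0.87). Gnai1 was nearest to Dynlt3 and Echdc1, both at 0.87, and Mgll to Itga7 (0.87) and Cabcoco1 (0.86). The matches of G0s2, Nabp1 at 0.84 and the mitochondrial carrier Slc25a25 at 0.83, and of Adrb3, Cmbl at 0.84 and Echs1 at 0.83, were the weakest. The highest of many correlations over 10 arrays are large in any such search.

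The rest of the pathway was read from 9 lists with 85 genes, of which 73 were measured and 20 had a variable representative probe set. None of the 73 passed the adjusted threshold in limma. At an unadjusted p under 0.05 there were 3: Cd36 and Got2 higher and Pde4b lower, the last 2 with flat probe sets, against 4.48% of all 14217 genes and 7.66% of those with a variable probe set. Of the 20 variable genes, 7 had higher and 13 lower means in the noodle group, with a median difference of -0.04, where the 1632 variable genes of the array had 727 higher and 905 lower and a median of -0.01.

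Upstream of the lipases, among the stimulating receptors, Npr1, the receptor of atrial natriuretic peptide, differed by -0.07 ± 0.14 and the growth hormone receptor Ghr by -0.05 ± 0.08. Among the inhibiting receptors and decoys, Npr3, which clears natriuretic peptides, differed by -0.19 ± 0.13, and for insulin signalling Pik3r1 differed by -0.04 ± 0.13. For the G proteins and cyclases, the stimulating subunit Gnas differed by -0.03 ± 0.06, Gnai2 by -0.10 ± 0.15 and the cyclase Adcy5 by 0.10 ± 0.06. For protein kinase A, the regulatory subunit Prkar2b differed by -0.02 ± 0.06 and the anchor Akap12 by 0.06 ± 0.10. In the phosphodiesterase list, Pde3a, Pde4a, Pde4b, Pde4c, Pde4d, Pde7a and Pde8a, with Abhd15, which is no phosphodiesterase, were all flat in their representative probe sets. With the RNA quality covariate, Npr1 stood at -0.23, Npr3 at -0.35, Pik3r1 at -0.17, Gnas at -0.08, Gnai2 at -0.22 and Prkar2b at -0.0045. None of these differences passed, and those of Npr1, Pik3r1, Gnas, Gnai2 and Prkar2b changed sign when 1 rat was left out.

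At the droplet and beyond, Pnpla3, a relative of Pnpla2, had the largest difference of the named pathway genes at 0.47 ± 0.38, with an SD of 0.67 in the noodle rats and 0.58 in the controls. It was 0.28 without control animal 8 and 0.18 with array weights. Pnpla7 differed by -0.24 ± 0.13, by -0.14 without control animal 5 and by -0.06 with the RNA quality covariate. The droplet proteins Plin2, Plin4 and Hilpda, an inhibitor of Pnpla2 like G0s2, differed by 0.10 ± 0.09, -0.12 ± 0.10 and -0.25 ± 0.21. Hilpda shared with G0s2 a control group far wider than the noodle group, with SDs of 0.49 and 0.09, and differed by -0.42 without control animal 8 but by -0.13 without control animal 11. For the fate of the products, Cd36, a fatty acid transporter, differed by 0.04 ± 0.01 (limma unadjusted p = 0.0118, adjusted p = 0.993), with 3 of 5 noodle rats above every control. Its values hardly varied, from 11.72 to 11.81, with SDs of 0.018 in the noodle rats and 0.020 in the controls, near the flat limit of 0.01. Glycerol kinase Gk differed by -0.07 ± 0.09 and Pck1, the glyceroneogenic carboxykinase, by -0.05 ± 0.14, and the latter was -0.16 without control animal 14 and 0.05 without noodle animal 13.

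Marker levels are given for the labelled tissue, since the extraction text in the labels names a brain sample. Of 16 adipocyte markers 14 were measured, with a median level of 12.2, and of 13 brain markers 12 were measured, with a median of 5.64 and only the myelin gene Mbp (8.76) above 6. Since levels of different probe sets are not comparable, this is a coarse description and not a test of the tissue. Array medians lay between 6.17 and 6.18. The mean adipocyte marker level was 11.6 to 11.9 in the noodle rats and 11.6 to 11.8 in the controls, with an exact permutation p of 0.881. For other cell types, macrophage markers were higher in 14 of 14 variable genes (all 15 averaged 8.41 to 8.89 against 8.32 to 8.80, exact permutation p = 0.198), mesothelial markers lower in 9 of 9 variable genes (6.22 to 7.12 against 6.15 to 7.74, p = 0.389) and red blood cell markers lower in 3 of 3 variable genes (all 5 averaged 7.88 to 8.14 against 8.02 to 8.35, p = 0.0635). In the other lists, the variable markers that were higher numbered 6 of 8 (adipocyte), 2 of 2 (brown fat), 2 of 6 (endothelial) and 4 of 6 (fibroblast and progenitor). They numbered 2 of 5 for smooth muscle and pericytes, and 0 of 1 each for brain and skeletal muscle. Of all 2607 variable probe sets, 1162 were higher and 1445 lower. Markers within a list share the same rats and are not independent. None of the 13 array measures passed after adjustment (the lowest was 0.413). The part of these cell types in the members' values was not tested, and in whole tissue fewer cells of a type and less RNA per cell cannot be told apart.

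**Figure D5:**
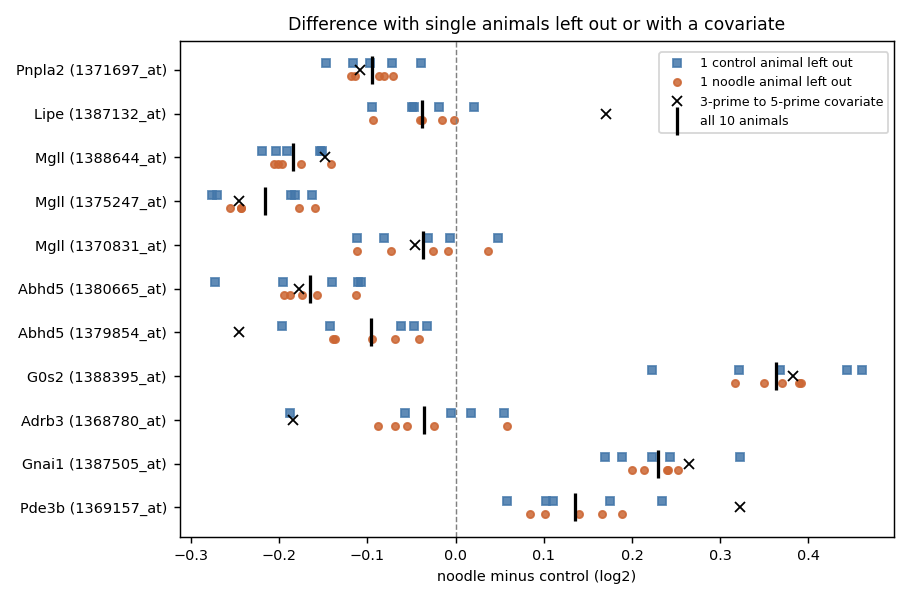
Difference between the diets (log2, noodle minus control) for the 11 variable probe sets with all 10 animals (black bar), with 1 control animal left out (blue squares), with 1 noodle animal left out (orange circles) and with the 3-prime to 5-prime measure as a covariate (cross). Lipe, Adrb3 and the third Mgll probe set fall on either side of 0, while G0s2 and Gnai1 stay between 0.17 and 0.46.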

How the data were processed

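White adipose tissue RNA of 10 rats was hybridised to 1 expression array each, from 100 ng of total RNA per the labels. The deposited table holds log2 values made by the authors, 1 per probe set and array. The scale was read from its range, and no source used here gives the background correction, summarisation or normalization. Of 31099 probe sets, 57 array controls were left out of the tests. Probe sets were named from the platform annotation, and all 10 members matched the current gene table.

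The members, lists and tests were chosen with earlier results of these data known. limma 3.58.1 in R 4.3.3 compared the diets (lmFit and eBayes, two-sided, Benjamini-Hochberg over all probe sets, threshold 0.05). Nothing in the labels says more of the replicates than 1 animal per sample. Correlations used 100000 permutations. Named were all members, up to 3 variable genes with the smallest p per pathway list (17 in all), and the 2 genes most like each variable member; Got2 and Pde4b were added after their values were seen. Alternatives were quantile normalization, centring, filters on dim or flat probe sets, a floor, other priors, array weights, the RNA quality measure or animal number as covariates, an exact permutation test, means over probe sets, and leaving out each animal.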

Additional observations from a re-analysis of the deposited data

Results flagged for a closer look

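Of 82 groups of 5 animals examined (11 member probe sets, 17 pathway genes and 13 array measures in each diet), 4 had 1 animal far from the other 4, and chance gives about 4.1, or 1 in 20. None was a member probe set. Pck1, the glyceroneogenic carboxykinase, stood at 11.69 in noodle animal 13 against 12.13 to 12.29 in the other noodle rats. It stood at 11.71 in control animal 14 against 12.21 to 12.26 in the other controls. Red blood cell markers averaged 7.88 in noodle animal 4 against 8.07 to 8.14, and those of smooth muscle and pericytes 7.95 in the same animal against 7.71 to 7.74. On the latter list control animal 2 was higher still, at 8.03, and control animal 14 stood at 7.88.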

How the results depend on the processing

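The count of members past the adjusted threshold was 0 under each alternative, and that of all probe sets was 0 except for 1 without control animal 14 (range 0 to 1). The count of members at an unadjusted p under 0.05 was 1, ranged from 0 (without noodle animal 4 or 7 or control animal 5) to 3 (without control animal 11) when 1 animal was left out, with 2 without control animal 2 or 8, and was 0 when probe sets of 1 gene were averaged, all or variable only. With the 3-prime to 5-prime covariate it was 1 as well, but that was Lipe and not Mgll. Of the 11 member differences, 2 turned sign under alternatives other than leaving out an animal. Lipe was 0.17 with the 3-prime to 5-prime covariate, and Adrb3 was 0.0097 with array weights and 0.0056 with the animal number. Among pathway genes, Plin4 was 0.00029 and Pck1 0.19 with the 3-prime to 5-prime covariate, and Pik3r1 was 0.030 and Gnas 0.0091 with array weights. The causes were not tested. Leaving out each animal turned 3 members (Lipe -0.10 to 0.021, the third Mgll probe set -0.11 to 0.048, Adrb3 -0.19 to 0.058) and 6 pathway genes (Npr1 -0.14 to 0.023, Pik3r1 -0.10 to 0.046, Gnas -0.062 to 0.021, Gnai2 -0.20 to 0.0088, Prkar2b -0.059 to 0.016, Pck1 -0.16 to 0.048). In 8 of 11 members and 24 of all 28 named probe sets it moved the value by over 1.5 times or turned it. Array weights moved Pnpla2 to -0.06, Lipe to -0.0036, the Abhd5 probe sets to -0.05 and -0.0038 and G0s2 to 0.25 (limma unadjusted p = 0.180). Of the pathway genes, they moved Plin2 to 0.04, Akap12 to 0.02, Pnpla3 to 0.18, Hilpda to -0.37 and Pck1 to -0.14. The other differences kept their sign. No paired analysis was run, because no animal number occurs in both diets and the feeding pairs are not named. Each noodle number is directly followed by a control number, but whether such neighbours were feeding pairs is not stated. The 5 flat member probe sets limit what can be said of Plin1 and Aqp7.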
